A study of Oryctolagus cuniculus with 17 samples.

Results

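A list of 9 genes linked to injured, transitional alveolar epithelium was looked up in whole-lung RNA sequencing data from preterm rabbits kept in high oxygen or in room air, and 6 of the 9 could be followed. The list held the keratins KRT8, KRT18, KRT19 and KRT7, the junction gene CLDN4, the 14-3-3 gene SFN, the growth factor genes AREG and HBEGF, and the receptor gene TNFRSF12A. Members were found by their human gene name in the count table, and where a symbol had several rows the row with the highest total count was kept. KRT18, KRT7, CLDN4, AREG, HBEGF and TNFRSF12A had a row, and all 6 were among the 13142 genes tested out of 13827 rows. No row carried the name KRT8, KRT19 or SFN, and these 3 genes were not analysed here.

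All samples came from New Zealand White rabbit pups delivered by caesarean section on day 28 of gestation, and prematurity was therefore common to the exposed and the control groups. The pups were fed a milk replacer and kept at 95% oxygen (hyperoxia, HT) or at 21% oxygen (normoxia, NT), and lungs were taken after 3, 5 or 7 days. Each group (NT3, NT5, NT7, HT3 and HT7) had 3 samples, except HT5 with 2. The material was a homogenate of the total right lung according to the labels and the study's methods, while the study's results text names the left lung. Nothing in the sources used here gives the litter of each pup, so p-values measure the spread between these samples. In such bulk samples, fewer cells of a type and less RNA per cell cannot be told apart.

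The alveolar surface is lined by flat type 1 cells, across which gas is exchanged, and by type 2 cells, which make surfactant and replace type 1 cells after injury. Type 2 cells on their way to type 1 cells pass through a transitional state that is known in injured lungs for high levels of simple epithelial keratins, claudin 4 and stress response genes. AREG and HBEGF encode ligands of the epidermal growth factor (EGF) receptor family that are made as membrane-bound precursors and shed by proteases, and TNFRSF12A encodes the receptor of the cytokine TWEAK. None of the 6 genes is made by this state alone: airway, mesothelial, immune, endothelial and stromal cells use some of them.

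The 6 genes lay at single-gene loci in the rabbit build OryCun2.0 named in the submitters' processing notes. KRT18 (ENSOCUG00000027691) was at chr4:36851112-36854226 and KRT7 (ENSOCUG00000002632) at chr4:36310427-36323370, both on the plus strand. AREG (ENSOCUG00000016286) was at chr15:75825169-75835546 and HBEGF (ENSOCUG00000015909) at chr3:22486166-22495504, both on the minus strand. CLDN4 (ENSOCUG00000010358) lay on the minus strand of the unplaced scaffold GL018765 from 818814 to 819443, and TNFRSF12A (ENSOCUG00000027985) on the plus strand of the scaffold GL018828 from 261137 to 268675. The values are counts over each whole gene, so exons and isoforms were not told apart. KRT18 had a further entry (ENSOCUG00000013117, chr5:4465-5990, minus strand) that held 9.54% of the counts of both entries, and how reads shared by near-identical copies were counted is not given in the sources used here.

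Libraries held between 13123731 and 18111086 counts with each locus taken once, and normalization factors ran from 0.958 to 1.05. Levels are given as CPM, counts scaled to a common library size after this normalization, and are compared between samples but not between genes, because transcript lengths were not available for this table. The total counts behind the members ranged from 1625 for AREG over all 17 samples to 88526 for KRT7. Epithelial landmark genes were abundant in NT7: SFTPC, the surfactant protein C gene of type 2 cells, stood at 7903 to 11890 CPM, AGER, a type 1 cell gene, at 3703 to 4760 CPM, and the epithelial adhesion gene EPCAM at 62.2 to 84.3 CPM. The defining marker of the transitional state, KRT8, was not measured here, so the label of the gene list could not be checked on it.

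On day 3 none of the 6 genes differed between hyperoxia and normoxia, on day 5 AREG and TNFRSF12A were higher in hyperoxia, and on day 7 all 6 were higher, by 2.72-fold (KRT7) to 9.65-fold (TNFRSF12A). Calls are at an adjusted p under 0.05 from the quasi-likelihood test of edgeR with Benjamini-Hochberg adjustment over all genes tested. Of all genes tested, 0.517% were higher and 0.517% lower on day 3, 15.9% higher and 15.4% lower on day 5, and 23.7% higher and 23.7% lower on day 7. The median log2 fold change over the 6 genes was 0.06, 0.63 and 2.02 on days 3, 5 and 7, beside 0.00, -0.02 and -0.01 over all genes tested. At the threshold the study used for differentially expressed genes (DEGs, adjusted p under 0.01 and a log2 fold change above 2), 0 members passed on day 3, TNFRSF12A passed on day 5, and CLDN4 and TNFRSF12A passed on day 7. The share of all genes tested that passed it as higher was 0.0533% on day 3, 0.822% on day 5 and 1.75% on day 7. On day 3 no member had an unadjusted p under 0.05 either, in edgeR or in DESeq2, whereas 2013 and 2097 of all genes did.

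**Figure D1:**
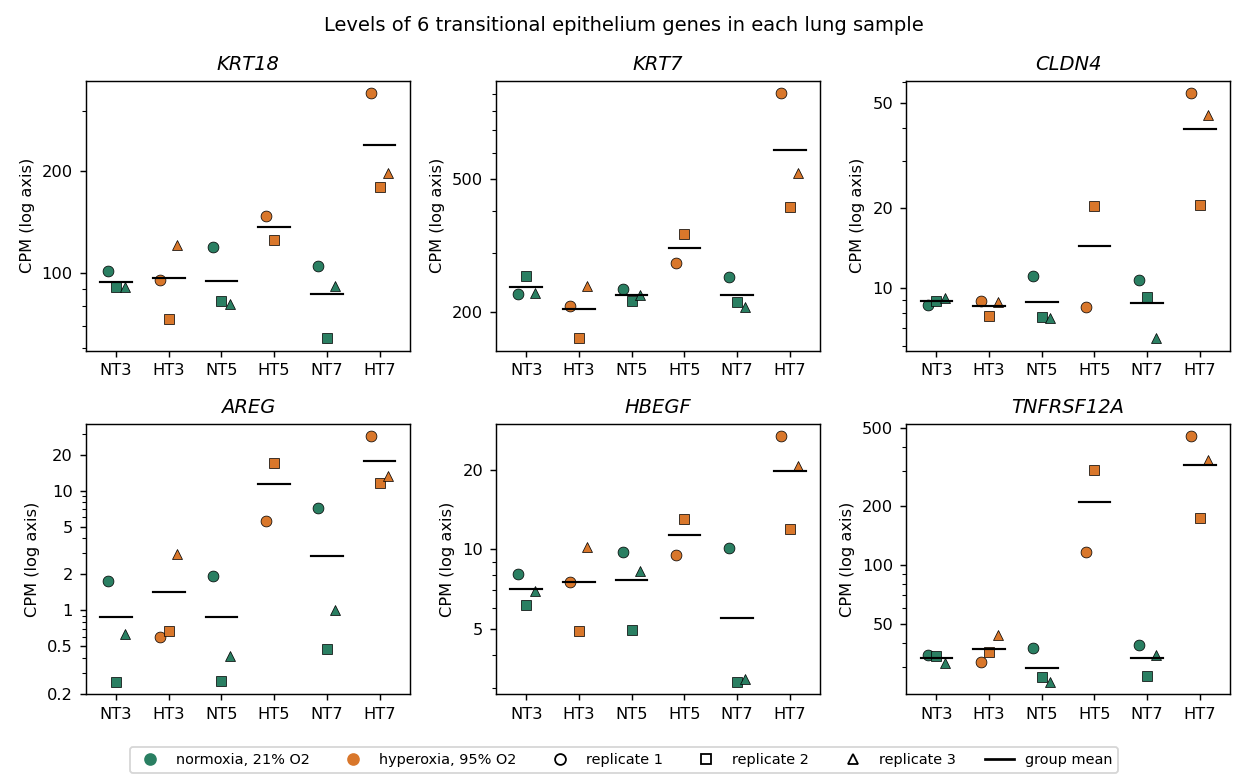
Level of each of the 6 genes in every sample, in CPM on a log scale, by day, with normoxia and hyperoxia samples as points in their own colours and the group mean as a bar. The HT7 samples of each gene lie above all NT7 samples, while HT3 and NT3 samples are mixed.

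The keratins of simple epithelia, which form the intermediate filaments of the cell, were both higher on day 7 and on no earlier day by the test. KRT18, a type I keratin, stood at 104.7, 64.2 and 91.3 CPM in the 3 NT7 samples and at 338.2, 179.1 and 196.4 CPM in the 3 HT7 samples. Every HT7 sample was thus above every NT7 sample, and HT7 replicate 1 stood well above its group. This gave a log2 fold change of 1.46 (SE 0.25, 95% interval 0.91 to 2.00 on the log2 scale, edgeR adjusted p = 0.000317). KRT18 was at 101.4, 90.8 and 90.8 CPM in NT3 and at 95.5, 73.05 and 120.8 CPM in HT3, so that the hyperoxia samples lay on either side of the controls on that day.

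On day 5 KRT18 was at 119.4, 82.9 and 81.3 CPM in normoxia and at 147.5 and 124.8 CPM in hyperoxia. The groups did not overlap, but the log2 difference of 0.53 (SE 0.28, interval -0.06 to 1.12) did not pass the test (edgeR adjusted p = 0.157). For such separation the background was wide, since 12.8% of all genes tested on day 3, 26.5% on day 5 and 27.3% on day 7 had every hyperoxia sample above every normoxia sample. The further KRT18 entry had a log2 fold change of 1.59 (SE 0.54, edgeR adjusted p = 0.0234) on day 7 and of 0.64 (adjusted p = 0.421) on day 5. Its level within groups went little with that of the main entry (r = 0.236 over the deviations of 17 samples from their group means, which share libraries and depth).

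KRT7, a type II keratin of simple and glandular epithelia, had the narrowest spread in normoxia, from 206.6 to 256.2 CPM over 9 samples. Its 3 HT7 samples stood at 903.3, 413.3 and 519.5 CPM, beside 254.9, 213.2 and 206.6 CPM in NT7. No HT7 sample came near the control range. Its log2 fold change was 1.44 (SE 0.22, interval 0.97 to 1.92, edgeR adjusted p = 0.000122). In HT5 the level was 279.7 and 341.8 CPM, above the 233.3, 215.5 and 223.7 CPM of NT5, with a log2 difference of 0.47 (SE 0.24, adjusted p = 0.148) that did not pass. In HT3 it was 208.5, 166.2 and 238.2 CPM beside 226.1, 256.2 and 227.7 CPM in NT3, a log2 difference of -0.21 (SE 0.22, adjusted p = 0.697).

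The level of KRT7 divided by that of KRT18 averaged 2.52, 2.44 and 2.67 in NT3, NT5 and NT7 and 2.14, 2.32 and 2.54 in HT3, HT5 and HT7, and lay between 1.90 and 3.32 in all 17 samples. KRT8, the usual type II partner of KRT18, is among the genes not analysed here.

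CLDN4, which encodes a tight junction protein that limits the passage of ions between epithelial cells, passed the test on day 7 and on no earlier day. The 9 normoxia samples lay between 6.42 and 11.1 CPM. The HT7 samples were at 54.3, 20.5 and 45.0 CPM, beside 10.7, 9.24 and 6.42 CPM in NT7. Every HT7 sample was above every control, and replicate 2 was the lowest of them. CLDN4 was 4.56-fold higher, a log2 fold change of 2.19 (SE 0.35, interval 1.45 to 2.93, edgeR adjusted p = 0.000157).

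The HT5 samples differed from each other for CLDN4, at 8.46 and 20.3 CPM, with 11.1, 7.70 and 7.70 CPM in NT5. HT5 replicate 1 was thus within the control range and replicate 2 above it. The log2 difference was 0.71 (SE 0.37, edgeR adjusted p = 0.16), and it rested on single samples: it was 1.2 (adjusted p = 0.0287) without HT5 replicate 1 and -0.076 (adjusted p = 0.932) without HT5 replicate 2. In HT3 CLDN4 was at 8.87, 7.81 and 8.81 CPM and in NT3 at 8.57, 8.87 and 9.16 CPM, a difference of -0.06 (SE 0.34, interval -0.79 to 0.67, adjusted p = 0.957).

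AREG, the gene of the EGF receptor ligand amphiregulin, had the fewest counts of the 6 and the widest spread in normoxia. In normoxia it ran from 0.252 to 7.11 CPM over 9 samples, a 28.2-fold span, and the highest value, in NT7 replicate 1, came from 104 counts while NT7 replicates 2 and 3 held 7 and 16 counts. The HT7 samples held 28.4, 11.5 and 13.2 CPM, beside 7.11, 0.472 and 0.997 CPM in NT7. All HT7 samples were above all NT7 samples, with replicate 1 of NT7 the nearest to them. AREG was higher by 2.63 on the log2 scale (SE 0.93, interval 0.64 to 4.62, edgeR adjusted p = 0.0303).

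On day 5 AREG stood at 5.57 and 16.99 CPM in hyperoxia and at 1.94, 0.255 and 0.413 CPM in normoxia, a log2 fold change of 3.70 (SE 1.07, interval 1.42 to 5.98, edgeR adjusted p = 0.0171). Both calls for AREG rested on few samples. The day 7 call was lost without HT7 replicate 1 (log2 fold change 2.11, adjusted p = 0.109), NT7 replicate 2 (2.13, adjusted p = 0.1) or NT7 replicate 3 (2.22, adjusted p = 0.104), while without NT7 replicate 1 the value was 4.57 (adjusted p = 0.00331). The day 5 call was lost without HT5 replicate 2 (2.67, adjusted p = 0.188), NT5 replicate 2 (3.30, adjusted p = 0.061) or NT5 replicate 3 (3.35, adjusted p = 0.0633). On day 3 the levels were 0.591, 0.665 and 2.98 CPM in hyperoxia and 1.74, 0.252 and 0.626 CPM in normoxia, and the log2 difference of 0.70 (interval -1.52 to 2.92, adjusted p = 0.799) was within the spread between samples.

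HBEGF, which encodes heparin-binding EGF-like growth factor, was higher on day 7 by 3.59-fold. Its HT7 samples were at 26.6, 12.0 and 20.7 CPM and its NT7 samples at 10.1, 3.17 and 3.24 CPM. The groups did not overlap, and NT7 replicate 1 was the highest control, as for AREG. On the log2 scale the change was 1.85 (SE 0.44, interval 0.91 to 2.78, edgeR adjusted p = 0.00301), and without NT7 replicate 1 it was 2.62 (adjusted p = 0.000246). On day 5 HBEGF was at 9.56 and 13.0 CPM in hyperoxia and at 9.81, 4.96 and 8.27 CPM in normoxia, overlapping, with a log2 difference of 0.56 (SE 0.47, adjusted p = 0.386). On day 3 hyperoxia samples at 7.51, 4.93 and 10.2 CPM lay around the normoxia samples at 8.07, 6.15 and 7.00 CPM.

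TNFRSF12A, the gene of the TWEAK receptor Fn14, had the largest fold change of the 6 on day 7. It stood at 451.1, 172.3 and 344.0 CPM in HT7 and at 38.7, 26.9 and 34.6 CPM in NT7. The lowest HT7 sample was well above the highest of all 9 normoxia samples, 38.7 CPM. The log2 fold change of 3.27 (SE 0.36, interval 2.5 to 4.04, edgeR adjusted p = 8.8e-06) was the 99th highest of the 13142 genes tested.

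TNFRSF12A had already passed the test on day 5, at 116.4 and 302.7 CPM in hyperoxia beside 37.5, 26.8 and 25.3 CPM in normoxia. Both HT5 samples were far above the controls and apart from each other. Its log2 fold change was 2.81 (SE 0.37, interval 2.02 to 3.61, edgeR adjusted p = 0.000191), or 7.02-fold, and was 1.95 without HT5 replicate 2. On day 3 the HT3 samples at 31.8, 35.9 and 43.7 CPM overlapped the NT3 samples at 34.6, 34.3 and 31.5 CPM, a log2 difference of 0.15 (SE 0.34, interval -0.57 to 0.87, adjusted p = 0.877).

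**Figure D2:**
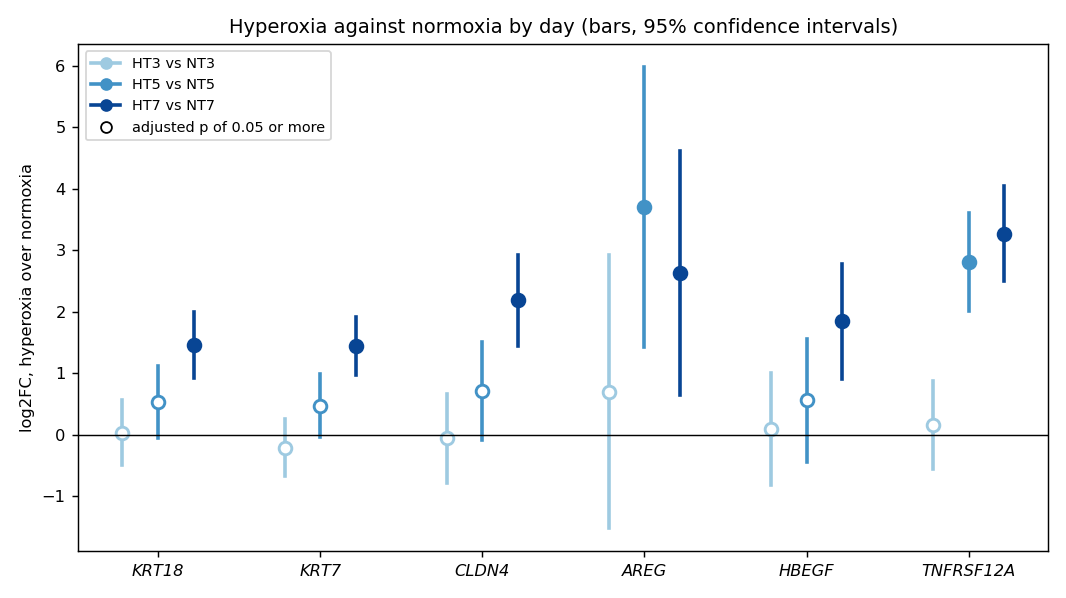
Log2 fold change of hyperoxia against normoxia for the 6 genes on days 3, 5 and 7, with 95% intervals from the edgeR fit, where filled points passed an adjusted p of 0.05. Intervals on day 3 span 0 for every gene, and on day 7 none does, with TNFRSF12A the highest at 3.27.

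The responses on days 7 and 3 were then compared with each other by the interaction of oxygen and day. The hyperoxia effect was larger on day 7 for 4 of the 6 genes, where 9.52% of all genes tested had a higher and 11% a lower response. The difference between the log2 fold changes was 3.12 for TNFRSF12A (SE 0.48, edgeR adjusted p = 0.00149), 2.25 for CLDN4 (SE 0.48, adjusted p = 0.00642), 1.66 for KRT7 (SE 0.31, adjusted p = 0.00328) and 1.42 for KRT18 (SE 0.35, adjusted p = 0.0129). For HBEGF it was 1.75 (SE 0.61, adjusted p = 0.0545) and for AREG 1.93 (SE 1.39, adjusted p = 0.342), neither of which passed. The AREG value ranged from 0.95 (without NT3 replicate 1) to 3.86 (without NT7 replicate 1) when 1 sample was left out. HBEGF passed under DESeq2 (adjusted p = 0.0199), with a replicate block (1.81, adjusted p = 0.0273) and with day as a number (1.75, adjusted p = 0.0484).

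Within normoxia, none of the 6 genes differed between days 7 and 3, nor did any gene tested (0% higher and 0% lower in edgeR, with 824 genes at an unadjusted p under 0.05, and 39 genes at an adjusted p under 0.05 in DESeq2, none of them a member). With these 2 groups fitted alone, 47 genes were higher and 5 lower, again with 0 members. No member had an unadjusted p under 0.05 in either tool. The log2 differences of the others than AREG lay between -0.36 (HBEGF) and 0.00 (TNFRSF12A), and that of AREG was 1.71 (SE 1.01, edgeR adjusted p = 0.882). Within hyperoxia, all 6 were higher on day 7 than on day 3, where 22.3% of all genes tested were higher and 22% lower. These log2 differences were 3.64 for AREG (edgeR adjusted p = 0.00797), 3.12 for TNFRSF12A (adjusted p = 2.24e-05), 2.23 for CLDN4 (adjusted p = 0.000188), 1.58 for KRT7 (adjusted p = 9.38e-05), 1.39 for HBEGF (adjusted p = 0.0162) and 1.30 for KRT18 (adjusted p = 0.000871). This comparison shares the HT7 and HT3 samples with the ones above. That of HBEGF was lost without HT3 replicate 2 (1.16, adjusted p = 0.072) or HT7 replicate 1 (1.12, adjusted p = 0.0728).

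Genes that mark epithelium in general were also higher in part, where 23.7% of all genes tested were higher on day 7. Of 10 pan-epithelial markers, 4 rose and 0 fell on day 7, with a median log2 fold change of 0.35: EPCAM by 1.04 (edgeR adjusted p = 5.54e-05), the adherens junction gene CDH1 by 0.99 (adjusted p = 0.000566), the membrane protease gene ST14 by 1.32 (adjusted p = 0.00139) and CLDN7 by 1.83 (adjusted p = 4.11e-05). Their summed level was 688.3 to 870 CPM in NT7 and 1198 to 1298 CPM in HT7. The other 6 markers were not called on day 7, and 1 of the 10 was lower on day 5 (3 higher) and in HT7 against HT3 (4 higher). Over all genes tested, 15.9% were higher and 15.4% lower on day 5, and 22.3% higher and 22% lower in HT7 against HT3. On day 5 the summed level of the 10 markers was 693.1 to 948.1 CPM in NT5 and 932.5 to 1106 CPM in HT5, and on day 3 NT3 (771.4 to 851.8 CPM) and HT3 (751.9 to 898.3 CPM) overlapped. Each of the 6 genes was also taken relative to the mean log2 level of the 10 markers, as a description with no test, and the part of this shift in the results was not tested.

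Relative to the epithelial markers, TNFRSF12A was higher in HT7 than in NT7 by 2.7 on the log2 scale, where it was 3.17 without that step. The other differences on day 7 were 2.81 for AREG (3.29 without), 1.61 for CLDN4 (2.09), 1.49 for HBEGF (1.97), 0.95 for KRT18 (1.43) and 0.89 for KRT7 (1.37). Every HT7 sample stayed above every NT7 sample for all but HBEGF. On day 5 the relative difference was 2.42 for TNFRSF12A and 3.49 for AREG, with no overlap, and KRT18 at 0.30 also did not overlap. KRT7 at 0.22, CLDN4 at 0.34 and HBEGF at 0.34 overlapped on that day. On day 3 the groups overlapped for every gene but KRT7, whose 3 HT3 samples (1.39 to 1.82) lay below the 3 NT3 samples (1.85 to 1.94), with a mean difference of -0.24.

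**Figure D3:**
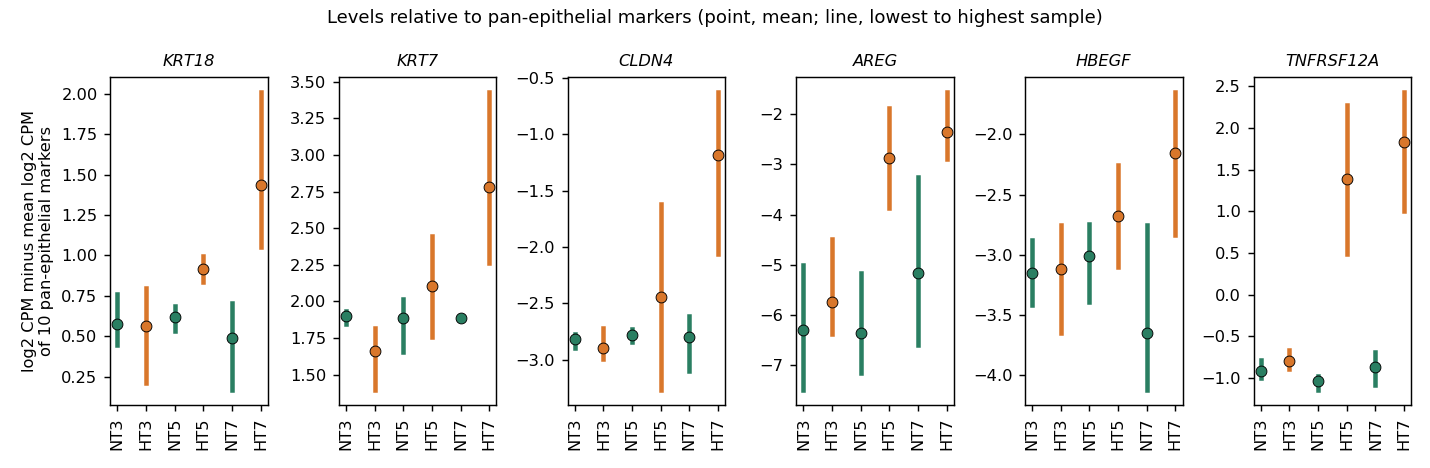
Level of the 6 genes relative to the mean of 10 pan-epithelial markers, as a log2 difference by day and oxygen. Points are group means, and lines run from the lowest to the highest sample. The HT7 points of TNFRSF12A, AREG, CLDN4, KRT18 and KRT7 lie above all NT7 points of the same gene, and those of HBEGF overlap them.

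The samples of a group also ranked alike for several of the genes. In HT7, replicate 1 was the highest and replicate 2 the lowest for all 6 genes, and in HT5, replicate 2 was the higher for all but KRT18. In normoxia, replicate 1 was the highest on all 3 days for KRT18, AREG, HBEGF and TNFRSF12A. Over the deviations of the 17 samples from their group means, the correlation was 0.88 for CLDN4 with TNFRSF12A, 0.85 for AREG with HBEGF and 0.75 for KRT18 with KRT7, and it was lowest for KRT18 with CLDN4, at 0.38. These are descriptions over samples that share libraries and depth.

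**Figure D4:**
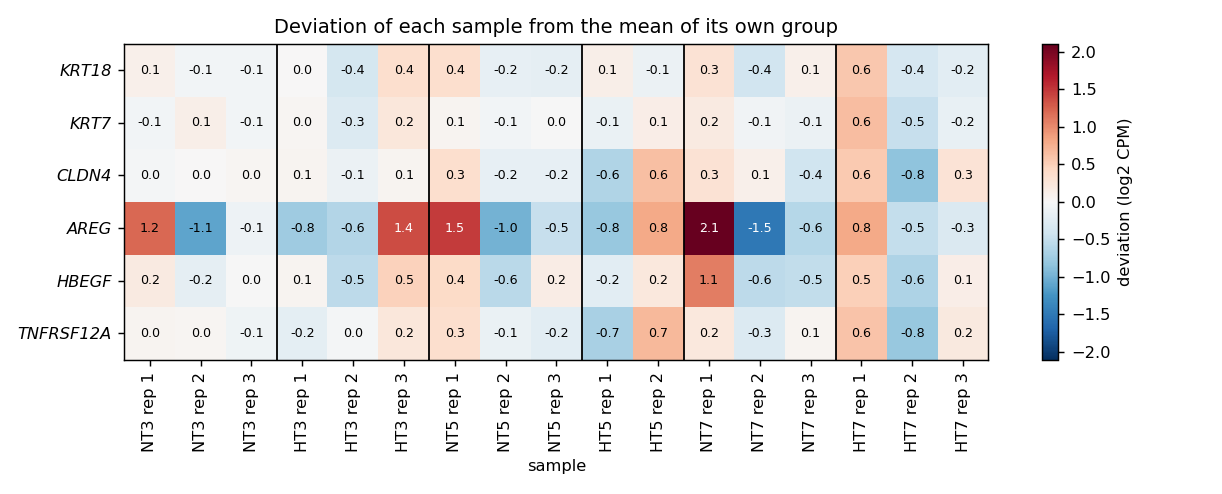
Deviation of each sample from its group mean in log2 CPM for the 6 genes, with one column per sample. HT7 replicate 1 is above and HT7 replicate 2 below the group mean for all 6 genes.

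The genes around these members, taken from lists chosen for their function, moved in part with them. Of 20 other genes of the transitional state that were tested, 1 was higher on day 3, 9 were higher and 1 lower on day 5, and 14 were higher and 2 lower on day 7, with a median log2 fold change of 1.19 on day 7. Over all genes tested, 0.517% were higher on day 3, and 15.9% were higher and 15.4% lower on day 5. On day 7 the share was 23.7% in each direction, with a median of -0.01. CDKN1A, the cell cycle inhibitor p21 that p53 induces, was at 23.9 to 36.0 CPM in NT7 and at 1012 to 1868 CPM in HT7, a log2 fold change of 5.51 (SE 0.38, edgeR adjusted p = 3.55e-07). It was higher on day 3 already, by 2.54 (adjusted p = 0.00177), when none of the 6 members passed. MDM2, the p53 ubiquitin ligase, rose by 2.65 (adjusted p = 7e-06), the tissue factor gene F3 by 2.38 (adjusted p = 1e-05) and the AP-1 gene FOSL1 by 4.02 (adjusted p = 1.4e-05) on day 7. These genes also stand in the lists of DEGs that the study drew from the same samples, so they are not independent evidence of the direction of the list.

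Genes of the EGF receptor family were called in both directions. Among 18 other ligands, receptors and shedding genes, 6 were higher and 6 lower on day 7, with a median of -0.06, where 23.7% of all genes tested were higher and 23.7% lower. On day 5 the counts were 5 and 5, beside 15.9% and 15.4% of all genes tested. On day 3, 1 gene was higher and 0 were lower, beside 0.517% in each direction. By day 7 the receptor genes ERBB4 and ERBB2 fell by 3.82 (edgeR adjusted p = 8.28e-06) and 1.17 (adjusted p = 6.6e-06) on the log2 scale, while EGFR rose by 0.42 (adjusted p = 0.00937). ADAM9, a membrane metalloprotease that can shed HBEGF, rose by 1.54 (adjusted p = 7.76e-06), and RHBDF1, which helps the shedding protease ADAM17 to the cell surface, fell by 0.64 (adjusted p = 4.85e-05). EREG, the ligand epiregulin and a close relative of AREG, had the largest rise of the list at 5.75 (adjusted p = 0.000424), and is named here after its values were seen.

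Genes that respond to EGF receptor signalling were called on day 7 in 1 direction against normoxia. Of 17 feedback and response genes, 0 passed on day 3, 4 were higher on day 5, and 9 were higher and 0 lower on day 7, with a median log2 fold change of 0.90. Of all genes tested, 15.9% were higher on day 5 and 23.7% on day 7. In HT7 against HT3, 9 of the 17 were higher and 3 lower, beside 22.3% and 22% of all genes tested. Those higher than in NT7 included the phosphatase gene DUSP4 at 2.11 (edgeR adjusted p = 2.63e-06), the growth regulator MYC at 1.69 (adjusted p = 0.000155) and the ETS factor gene ETV4 at 2.52 (adjusted p = 0.000286). FOSL1 stands in this list and in that of the transitional state.

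The ligand of the TWEAK receptor and genes downstream of it were higher in part on day 7. TNFSF12, which encodes TWEAK, was at 128.8 to 132.8 CPM in NT7 and at 146.7 to 185.6 CPM in HT7, a log2 fold change of 0.34 (edgeR adjusted p = 0.013). Of 9 genes of the pathway tested, 4 were higher and 1 lower on day 5, and 6 were higher and 1 lower on day 7, with a median of 0.47. The shares of all genes tested were 15.9% higher and 15.4% lower on day 5, and 23.7% in each direction on day 7. The apoptosis inhibitor gene BIRC3, a target of NF-kappaB, rose by 4.16 on day 7 (adjusted p = 0.000196), NFKB2, the NF-kappaB subunit of the noncanonical arm, by 1.31 (adjusted p = 0.00229), the kinase gene CHUK by 0.47 (adjusted p = 0.00281) and the adaptor gene TRAF3, which restrains that arm, by 0.71 (adjusted p = 0.00189).

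Among the relatives of the structural members, 4 of 8 other keratins and 4 of 12 other claudins were higher on day 7, while 0 keratins and 2 claudins were lower. The counts of the claudins were near the share of all genes tested, 23.7% in each direction, and CLDN7 and CLDN18 are also counted among the pan-epithelial and type 2 cell markers. KRT5, a keratin of basal cells, rose by 1.99 (edgeR adjusted p = 0.00063) from 1.15 to 1.91 CPM in NT7 to 5.33 to 8.54 CPM in HT7. The epithelial keratin gene KRT80 rose by 1.71 (adjusted p = 0.000284). CLDN3, a claudin of type 2 and airway cells, rose by 1.36 (adjusted p = 0.00168), whereas CLDN18, the lung claudin of alveolar cells, fell by 1.04 (adjusted p = 0.00104). Of 5 tested relatives of SFN, YWHAZ was higher by 0.39 (adjusted p = 0.00954) and YWHAH was lower, with a log2 fold change of -0.44 (adjusted p = 0.011).

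**Figure D5:**
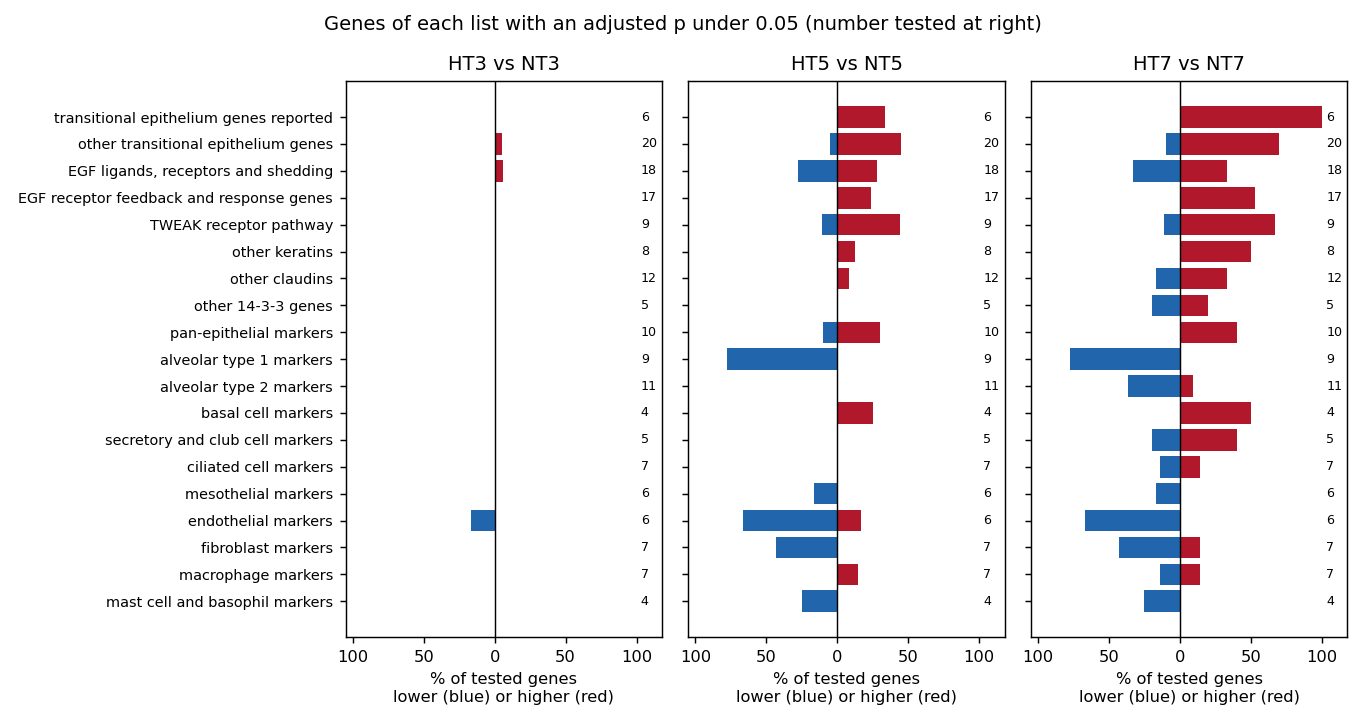
Percent of the tested genes of each functional or marker list that were higher or lower in hyperoxia at an adjusted p under 0.05, by day. The number tested stands at the right. On day 7, 14 of 20 other genes of the transitional state were higher and 2 lower. Of 9 type 1 cell markers, 0 were higher and 7 lower, beside 23.7% of all genes tested in each direction.

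Markers of the cells on either side of the transitional state were lower in part. Over all genes tested, 0.517% were called in each direction on day 3, and 15.9% were higher and 15.4% lower on day 5. On day 7 this share was 23.7% in each direction. Of 9 type 1 cell markers, 0 passed on day 3, 7 fell on day 5 and 7 fell on day 7, with a median log2 fold change of -2.26 on day 7, and their summed level was 8376 to 9247 CPM in NT7 and 2265 to 2994 CPM in HT7. AGER fell by 2.04 (edgeR adjusted p = 5.54e-05). Of 11 type 2 cell markers, 0 passed on days 3 and 5, and 1 rose and 4 fell on day 7, with summed levels of 18440 to 24550 CPM in NT7 and 14180 to 30520 CPM in HT7 that overlapped. Their median log2 fold change on day 7 was -0.42, beside -0.01 over all genes tested. SFTA2, a surfactant-associated gene, fell by 1.79, NAPSA, an aspartic protease gene, by 1.49 and CLDN18 by 1.04, while the surfactant protein gene SFTPA1 rose by 1.17 (edgeR adjusted p = 0.0229) and SFTPC had a log2 difference of -0.42 (adjusted p = 0.392). In HT7 against HT3, 7 genes were lower and 0 higher in each of the 2 lists, beside 22% lower and 22.3% higher over all genes tested.

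Markers of other cells that can express these genes went in both directions, and their counts stand beside the 23.7% higher and 23.7% lower of all genes tested on day 7. The share of called macrophage, ciliated, mesothelial and mast cell markers in either direction was near or below those shares. The summed level of 5 secretory cell markers was 87.2 to 137.5 CPM in NT7 and 238.4 to 309.6 CPM in HT7, with 2 genes higher and 1 lower. The 4 basal cell markers summed to 200.2 to 261.9 CPM in NT7 and 200 to 349.7 CPM in HT7, which overlapped, with 2 genes higher, KRT5 and TP63. KRT15 made up most of that sum, with a mean of 231.2 CPM in NT7. Of 7 macrophage markers 1 rose and 1 fell, with a median log2 fold change of -0.30. Their sum was 1094 to 1308 CPM in NT7 and 1697 to 2319 CPM in HT7, in which the lysosomal gene CD68 went from a mean of 688.2 to 1597 CPM, while the scavenger receptor gene MARCO fell by 2.19 on the log2 scale (edgeR adjusted p = 0.00331). Of 6 mesothelial markers 1 fell (UPK3B, from a mean of 127.1 to 14.9 CPM) and 0 rose, with a median of 0.20 and a sum of 124.6 to 185.6 CPM in NT7 and 14.3 to 56.7 CPM in HT7. Of 4 mast cell and basophil markers 1 fell (KIT, from a mean of 64.65 to 10.3 CPM) and 0 rose, with a median of 0.18 and a sum of 42.1 to 87.2 CPM in NT7 and 15.4 to 19.9 CPM in HT7. On day 7, 1 of 7 ciliated cell markers rose and 1 fell, 4 of 6 endothelial markers fell and 0 rose, and 1 of 7 fibroblast markers rose and 3 fell. No marker in the table was at 0 in all samples. The part of any of these cells in the results for the 6 genes was not tested.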

How the data were processed

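Gene counts were deposited by the authors as 1 table of raw counts with a column for each of the 17 samples, and 0 columns were left unused. Per the submitters' processing notes, reads of the paired-end, stranded poly(A) libraries were checked with FastQC and aligned with STAR 2.7.10a, on the build OryCun2.0, whereas the counting program and its strand setting are not given in the sources used here. Of the rows, 44 carried no human gene name. A locus shared by several genes has the same counts in each of its rows. The library totals given above took each locus once. The library sizes behind the fit and the CPM summed all tested rows, so that shared loci entered more than once. In HT3 replicate 1 the 2 values were 15491976 and 17133178 counts. Counts were filtered with filterByExpr, normalized by TMM and tested with the quasi-likelihood test of edgeR 4.0.16 (R 4.3.3, limma 3.58.1, prior count 0.125) over 6 groups of day and oxygen, with Benjamini-Hochberg adjustment and a threshold of 0.05. The paper used DESeq2, run here as an alternative (1.42.0). The standard error is the absolute log2 fold change divided by the square root of F, and log2 levels used a prior count of 2. Scripts were tested on simulated data. Figures were drawn with matplotlib 3.10.9.

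Members and lists were chosen with earlier results of these data known. All members are named, and from each functional list the 4 genes with the smallest p on day 7 could be named, plus landmark genes. The markers MSLN and SCGB1A1 had no row. The ratio of KRT7 to KRT18 was chosen after the table was seen. Replicate numbers of hyperoxia and normoxia samples were compared by correlating, over genes, how far same-numbered samples lay from their groups' means. The correlation was 0.166, 0.131 and 0.199 on day 3, 0.264 and 0.141 on day 5 with 2 pairs, and 0.174, 0.109 and 0.069 on day 7. The numbers thus passed the threshold of 0.1 for every pair with 3 pairs on day 3 alone. The labels do not say what a number stands for. Alternatives were DESeq2, RLE factors, no filter or a minimum of 10 counts in every sample of a group, the compared groups alone, a replicate block, 1 entry per locus, an adjusted p under 0.01, day as a number, and leaving out each sample.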

Additional observations from a re-analysis of the deposited data

Results flagged for a closer look

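The effect of hyperoxia differed between days 7 and 3 for 4 of the 6 genes by a test of the difference itself, the interaction of oxygen and day in edgeR, where 9.52% of all genes tested had a higher and 11% a lower response. The log2 fold change was larger on day 7 by 1.42 for KRT18, 1.66 for KRT7, 2.25 for CLDN4 and 3.12 for TNFRSF12A. In each of these genes the day 3 groups overlapped and the 3 hyperoxia samples of day 7 were all above the 3 normoxia samples, as they were for 27.3% of all genes tested.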

How the results depend on the processing

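Over 258 recomputed log2 fold changes of the 6 genes under alternatives of the fit, scaling, filter or tool, 255 kept their direction and side of the threshold, 3 newly passed and 0 were reversed or lost. With a replicate block, 2 members rather than 1 passed the DEG threshold on day 5 (AREG and TNFRSF12A), as with DESeq2 (2), and 0 passed with the compared groups alone. The block changed no other call except that of HBEGF for the response on day 7 minus day 3. At an adjusted p under 0.01, fewer members were higher: 1 on day 5 (AREG lost), 5 on day 7 (AREG lost), 3 for the response (KRT18 lost) and 5 for HT7 against HT3 (HBEGF lost). Leaving out 1 sample at a time gave 246 values, of which 223 kept their direction and call, 8 lost the call, 4 gained it and 11 were reversed, none of the last called before. The number of members called higher then ranged from 1 to 3 on day 5, 5 to 6 on day 7, 4 to 5 for the response and 5 to 6 for HT7 against HT3. Members past the DEG threshold ranged from 0 (without HT5 replicate 2) to 1 on day 5, and from 1 (without HT7 replicate 1) to 4 (without NT7 replicate 1) on day 7. For the log2 differences with a reversed value, the range over all these fits, kept and reversed values together, was as follows. On day 3 it was -0.45 to 1.69 (AREG), -0.185 to 0.33 (HBEGF) and -0.16 to 0.20 (KRT18). On day 5 it was -0.076 to 1.2 for CLDN4. For NT7 against NT3 it was -0.22 to 2.7 (AREG), -0.18 to 0.17 (CLDN4), -0.28 to 0.055 (KRT18) and -0.12 to 0.13 (TNFRSF12A). Among all genes, day 3 gave 68 higher and 68 lower, against 236 and 269 in DESeq2 and 117 and 164 with the compared groups alone, day 5 gave 2093 and 2022 against 1190 and 1222 with the compared groups alone, and NT7 against NT3 gave 0 against 25 and 14 in DESeq2 and 47 and 5 with the compared groups alone. Leaving out 1 sample gave as few as 13 higher (without NT3 replicate 2) and 15 lower genes (without HT3 replicate 2) on day 3, 562 and 596 on day 5 (without HT5 replicate 2), and 718 rather than 1251 with a higher response on day 7 than on day 3 (without NT7 replicate 2). The cause was not tested.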

Other observations

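The further KRT18 entry had its highest level in replicate 3 of every group that had a replicate 3, at 14.7 CPM in NT3, 13.1 in NT5, 13.7 in NT7, 19.1 in HT3 and 32.8 in HT7. The next highest sample of those groups stood at 6.89, 8.18, 7.52, 6.15 and 23.6 CPM. The main KRT18 entry was highest in replicate 1 in all of these groups but HT3. The labels do not say whether a replicate number marks a litter or a preparation.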
